A study of Mus musculus with 96 samples.

Results

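The cells described here are 70 single epithelial cells of the mouse uterus, of which 50 had a Wnt7a signal and 20 had none, out of 96 cells measured in all. They came from uteri of mice at postnatal day 7 that were dissociated with type I collagenase and sorted for the epithelial surface protein CD326, the product of Epcam, with 1 cell per well. RNA of each cell was reverse transcribed and preamplified for a set of targets in 1 step and then read with 96 assays by quantitative PCR with the dye EvaGreen on a Biomark microfluidic chip. All cells belong to 1 labelled group with no treatment, and the labels name neither a strain or genotype nor how many animals were used. Because no label ties a cell to an animal, the 70 cells count as 1 sample: differences between cells are described with their counting intervals and carry no test.

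The members were chosen by 3 measured values of each cell. A cell was kept if its threshold cycle (Ct, the PCR cycle at which fluorescence passes a set level, so that a lower Ct means more template) was below 18 for the housekeeping gene Gapdh and below 28 for Epcam. A kept cell was called Wnt7a-positive if its Wnt7a Ct was below 28 and Wnt7a-negative otherwise; a Ct of 40 stands for no recorded amplification. The Wnt7a values that made the groups ranged in the 50 positive cells from a Ct of 14.77 through a median of 18.21 to 27.91. The latest of these stood alone near the limit, since the next positive cell was at 23.13, and all 20 negative cells had no recorded Wnt7a Ct. For Gapdh the kept cell nearest the limit had a Ct of 16.54, and the nearest Epcam-carrying cell left out had 18.33. For Epcam the latest kept Ct was 24.91, and every cell beyond the limit was at 40. The rule left out 8 cells with late or no Gapdh and 18 cells with Gapdh but without Epcam.

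Wnt7a encodes a secreted WNT ligand that is made in the epithelium of the female reproductive tract, where it is known for its part in patterning the Müllerian duct and in the formation of uterine glands in the neonate. WNT ligands bind Frizzled receptors on the same or neighbouring cells, and the canonical branch of the pathway acts through beta-catenin, the product of Ctnnb1. At the age studied, the mouse uterus has a simple luminal epithelium from which glands begin to form.

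The sequence upstream of Wnt7a is shown because it is the gene that divides the cells, beside those of Hprt and Cd55, which had a large difference in detection between the groups and 1 start in the promoter table. Hopx, Prom1 and Pax2, which also differed, have several starts there and are named only, as are Insr and Msi1. Each sequence is the 250 bases before the gene's start, read 5′ to 3′ on the gene's strand, from RefSeq on build GRCm38.p6, with GC boxes (GGGCGG on either strand) in capitals. Wnt7a lies on the minus strand (chr6:91411354-91411603), Cd55 on the minus strand (chr1:130462745-130462994) and Hprt on the plus strand (chrX:52987828-52988077).
Wnt7a: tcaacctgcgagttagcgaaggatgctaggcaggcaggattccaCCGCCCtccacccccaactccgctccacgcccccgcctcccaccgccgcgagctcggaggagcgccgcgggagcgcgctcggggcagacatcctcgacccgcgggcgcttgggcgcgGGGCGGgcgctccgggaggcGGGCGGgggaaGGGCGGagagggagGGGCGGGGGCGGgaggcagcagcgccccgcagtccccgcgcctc
Cd55: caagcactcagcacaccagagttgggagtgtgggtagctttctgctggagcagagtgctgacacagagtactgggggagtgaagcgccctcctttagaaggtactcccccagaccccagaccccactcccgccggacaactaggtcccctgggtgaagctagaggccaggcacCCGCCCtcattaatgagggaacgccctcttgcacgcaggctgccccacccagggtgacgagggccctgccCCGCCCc
Hprt: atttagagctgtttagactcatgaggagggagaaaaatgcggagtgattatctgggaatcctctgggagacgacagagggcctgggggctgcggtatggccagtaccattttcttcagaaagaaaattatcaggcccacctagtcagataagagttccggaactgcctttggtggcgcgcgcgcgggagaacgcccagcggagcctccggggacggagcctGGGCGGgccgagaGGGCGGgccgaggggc
The Wnt7a stretch held 6 GC boxes and was 77.6% G or C, against a median of 52.4% over the 32851 promoters of the table, of which 0.886% held as many GC boxes. The Cd55 and Hprt stretches held 2 GC boxes each, at 64% and 59.6% G or C. A GC box occurred in 32.7% of all promoters of that length. None of the 3 stretches held a TATA box (TATAAA, in 12.4% of promoters), the TCF/LEF motif CTTTGAT (3.21%) or the homeodomain core TAATTA (4.84%), on either strand. These matches are a description of the letters only.

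Wnt7a-positive cells gave more signal in general. Of the 93 assays that the rule did not use, a positive cell detected between 35 and 75 with a median of 55 (mean 54.58 ± 8.18, SD, n = 50 cells). A negative cell detected between 25 and 64 with a median of 50 (48.8 ± 9.53, SD, n = 20 cells). The median Gapdh Ct was 12.55 in positive and 13.69 in negative cells, and the median actin Ct was 12.26 and 14.67. Epcam Ct ran from 15.17 through 20.22 to 24.43 in positive cells and from 19.71 through 22.42 to 24.91 in negative cells. Relative to Gapdh, Epcam lay at 7.29 ± 1.64 cycles in positive and 8.73 ± 2.62 cycles in negative cells, so Epcam also differed after that scaling. The ranges of all these measures overlapped between the groups. To take the number of detected assays into account, the cells were divided for each assay into 3 strata by how many of the other assays they detected, and the share difference was averaged over the strata.

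The assays detected more often in Wnt7a-positive cells were led by Hopx, Hprt, Prom1, Insr, Pax2, Cd55 and Msi1. Of the 62 assays detected in 10% to 90% of the kept cells, 11 (17.7%) had a depth-matched share at least 20 percentage points higher in positive cells, and 7 of these were higher by 30 points or more. Another 7 (11.3%) were at least 20 points lower, led by Krt15 and Wnt5a. Before matching, 12 assays were at least 20 points higher and 2 lower, and 10 were past 20 points higher both before and after it. The median difference over the 62 assays moved from 6.50 points before matching to 0.20 after it, which the matching itself brings near 0. Sizes past 20 points are a rule of description, not a test.

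**Figure D1:**
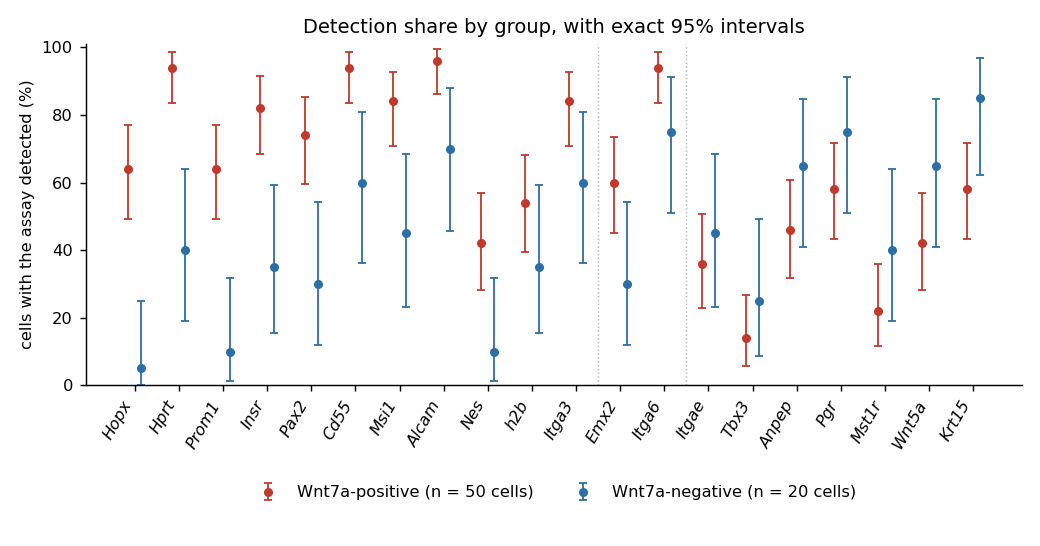
Share of cells (percent, y axis) in which each assay was detected in the 50 Wnt7a-positive and the 20 Wnt7a-negative cells, with exact 95% intervals as bars; dotted lines part the 11 assays higher by 20 points or more after depth matching, Emx2 and Itga6, and the 7 lower ones. The intervals of the groups lie apart for Hopx, Hprt, Prom1, Insr, Pax2, Cd55 and Msi1 and overlap for Krt15 and Wnt5a.

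Hopx, a small homeodomain protein that binds no DNA itself and marks slow-cycling stem cells in the intestine, showed the widest gap. It was detected in 32 of 50 positive cells (64%, exact 95% interval 49.2% to 77.1%) and in 1 of 20 negative cells (5%, 0.127% to 24.9%), a depth-matched difference of 59.6 points. In the positive cells that detected it, Hopx Ct ran from 15.28 through 20.06 to 23.75, and the single negative cell had 23.69. The gap was present at every depth: Hopx was found in 10 of 14 positive and 1 of 9 negative cells of the stratum with the fewest detected assays, in 9 of 16 and 0 of 8 in the middle stratum, and in 13 of 20 and 0 of 3 in the stratum with the most.

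Prom1, which encodes the membrane glycoprotein CD133 of apical protrusions, was detected in 32 of 50 positive cells (64%, 49.2% to 77.1%) and 2 of 20 negative cells (10%, 1.23% to 31.7%). The matched difference was 48.3 points. Its Ct in positive cells ran from 13.98 through 17.49 to 24.96, and in the 2 negative cells it was 18.31 and 22.13. Unlike Hopx, Prom1 was found in a larger share of the deeper positive cells, from 5 of 14 in the lowest stratum through 12 of 17 to 15 of 19 in the highest, while none of the 7 and 3 negative cells of the upper strata had it. In a linear fit that also held Gapdh Ct and Epcam Ct, chosen after seeing the data, the Prom1 difference was 25.4 points.

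Pax2, a transcription factor of the developing kidney and Müllerian duct, was detected in 37 of 50 positive cells (74%, 59.7% to 85.4%) and 6 of 20 negative cells (30%, 11.9% to 54.3%), 38.0 points apart after matching. Its Ct was late in either group, from 17.44 through 23.19 to 27.04 in positive and from 22.88 through 24.42 to 26.33 in negative cells. A Ct of 24 or later was recorded in 12 of the 37 positive and 5 of the 6 negative detections, so many Pax2 calls were late. With detection set at Ct 26 the Pax2 difference was 38.5 points, and at Ct 24 it was 40.5 points. In the fit that also held Gapdh Ct and Epcam Ct, the Pax2 difference was 20.3 points. Emx2, a homeobox gene needed for the Müllerian duct, was detected in 30 of 50 positive cells and 6 of 20 negative cells. Its plain difference of 30 points became 18.6 points after matching and -3.11 points in the fit that held Gapdh Ct and Epcam Ct. Of the 6 assays on the list of female tract regulators that the rule did not use, 5 were compared, Pax2 alone was past 20 points higher, none was past 20 points lower, and their median was -7.95 points. Hoxa11, a HOX gene of the uterus, was detected in 12 of 50 positive and 8 of 20 negative cells, a matched difference of -18.1 points. Hoxa10 was found in 4 and 3 cells and Hoxa13 in 21 and 9.

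Insr, the insulin receptor, was detected in 41 of 50 positive cells (82%, 68.6% to 91.4%) and 7 of 20 negative cells (35%, 15.4% to 59.2%), 44.6 points apart after matching. The related receptor gene Igf1r was detected in all 70 cells, and Mst1r, the receptor of macrophage-stimulating protein, differed the other way, in 11 of 50 against 8 of 20 cells (-28.6 points). Cd55, a membrane-anchored inhibitor of complement, was detected in 47 of 50 positive and 12 of 20 negative cells (36.5 points), and its difference was 60.4 points when cells without Epcam were let in. Msi1, an RNA-binding protein of progenitor cells, was detected in 42 of 50 and 9 of 20 cells (34.1 points). In the cells that detected it, Cd55 lay 7.28 ± 1.61 cycles later than Gapdh in positive cells and 7.30 ± 1.98 in negative cells, and its difference was -0.74 cycles with depth in the fit. Msi1 lay at 6.24 ± 1.49 and 5.95 ± 1.43 cycles, with a fitted difference of 0.03. Mst1r lay at 11.51 ± 1.47 and 9.99 ± 1.39 cycles, with a fitted difference of 0.83, and Insr had too few detecting negative cells for a fit.

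Hprt, a purine salvage enzyme often used as a housekeeping reference, was detected in 47 of 50 positive cells (94%, 83.5% to 98.7%) and 8 of 20 negative cells (40%, 19.1% to 64.0%). Its matched difference of 50.6 points was the second largest, and its level in the detecting cells was 5.36 ± 1.25 and 5.41 ± 2.26 cycles later than Gapdh. In the lowest depth stratum Hprt was found in 13 of 14 positive and 4 of 9 negative cells. A gene used as a reference thus stood among the assays that went with Wnt7a. Across the 20 alternatives for shares, the Hprt difference ran from 39.8 to 56.6 points. These alternatives include strata by Gapdh Ct and fits that held Gapdh Ct. The part that RNA yield plays in the detection differences was not tested beyond the matching and these settings. The remaining assays past 20 points higher were Alcam, a cell adhesion molecule, in 48 of 50 and 14 of 20 cells (24.2 points), Nes, the intermediate filament nestin, in 21 and 2 cells (21.8 points), the laminin-binding integrin Itga3 in 42 and 12 cells (20.5 points), and the h2b assay in 27 and 7 cells (20.5 points). Ezh2, a histone methyltransferase, lay just under the size used, at 19.9 points. Under another setting or with some cells left out, the lowest difference was 17.5 points for Alcam, 17.8 for Nes, 15.9 for Itga3 and 12.9 for h2b, each under the 20 points used.

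Of the 4 other genes that were proposed as going with Wnt7a, Hopx, Prom1 and Pax2 were past 20 points and Itga6 was not. Itga6, an integrin subunit of the basal epithelial surface, was detected in 47 of 50 positive cells (94%, 83.5% to 98.7%) and 15 of 20 negative cells (75%, 50.9% to 91.3%), a matched difference of 14.1 points. When cells without Epcam were let in, the Itga6 difference was 38.4 points. Its level in the detecting cells was alike, at 7.13 ± 1.53 and 7.12 ± 1.69 cycles later than Gapdh. Because these 4 genes were proposed with results of these cells in view, their agreement in direction is no independent evidence.

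**Figure D2:**
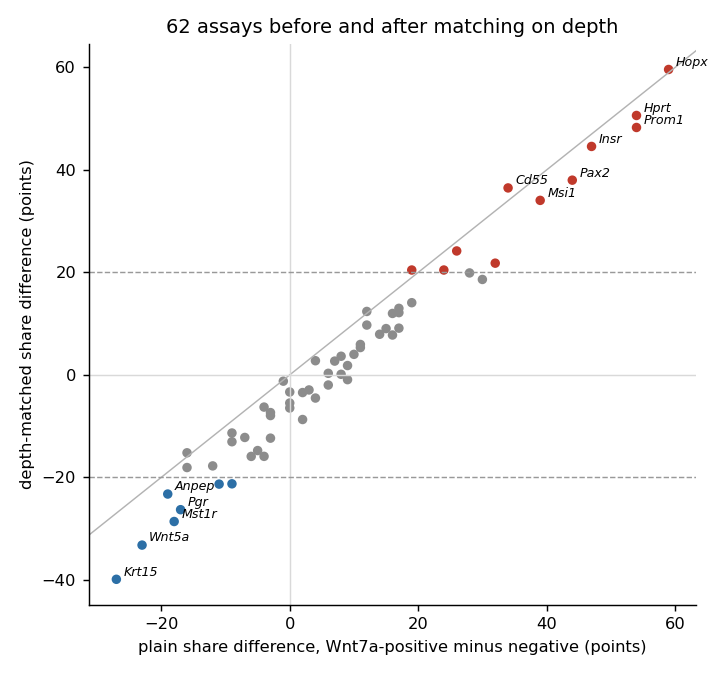
Difference in detection share, Wnt7a-positive minus Wnt7a-negative (percentage points), before (x axis) and after (y axis) matching on the number of detected assays, for the 62 compared assays; the grey diagonal marks equal values and dashed lines mark 20 points. Most points lie below the diagonal, the 11 red assays stand at 20 points or more after matching and the 7 blue ones at -20 points or less.

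Among the assays detected less often in positive cells Krt15 and Wnt5a had the largest differences, and the intervals of the groups overlapped for all 7. Krt15, a keratin of basal epithelial layers, was detected in 29 of 50 positive cells (58%, 43.2% to 71.8%) and 17 of 20 negative cells (85%, 62.1% to 96.8%), a matched difference of -39.9 points. Its Ct ran from 14.92 through 20.14 to 27.70 in positive and from 16.96 through 19.67 to 22.86 in negative cells. Wnt5a, a WNT ligand known mainly from the uterine stroma, was detected in 21 of 50 (42%, 28.2% to 56.8%) and 13 of 20 cells (65%, 40.8% to 84.6%), -33.2 points after matching. For Krt15 and Wnt5a the negative cells had the higher share in each of the 3 depth strata. In the lowest stratum Krt15 was found in 3 of 13 positive and 7 of 10 negative cells and Wnt5a in 3 of 14 and 6 of 10.

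Pgr, the progesterone receptor, was detected in 29 of 50 and 15 of 20 cells (-26.3 points), with a Ct of 24 or later in 15 of the 29 positive and 10 of the 15 negative detections. With detection set at Ct 24 the Pgr difference was -4.58 points. Anpep, the aminopeptidase CD13, was found in 23 of 50 and 13 of 20 cells (-23.3 points), a difference that turned to 2.47 points when cells without Epcam were let in. Tbx3, a T-box transcription factor, was found in 7 and 5 cells (-21.3 points). Itgae, the integrin subunit CD103 of intraepithelial lymphocytes, was found in 18 and 9 cells (-21.3 points), and its difference turned to 6.02 points with detection set at Ct 24. Only Krt15 and Wnt5a were also past 20 points before matching, so for the other 5 the size rests on the matching. Across the alternatives Krt15 ran from -48.4 to -24.5 points and Wnt5a from -43.0 to -21.6, while Mst1r and Tbx3 came down to -18.0 and -11.0 points where depth was left out.

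Other gene groups gave few calls, to be read against the 17.7% of all compared assays that were past 20 points higher and the 11.3% that were lower. Of the 17 assays on the stem and progenitor list, 12 were compared and 3 were past 20 points higher (Hopx, Prom1 and Msi1), with a median of 10.9 points against 0.20 over all compared assays. That list holds Hopx, Prom1 and Itga6, which were proposed with results of these cells in view. Its median is therefore no independent evidence. Of the 10 WNT pathway assays outside the rule, 6 were compared, none was past 20 points higher and Wnt5a was lower. Lgr5, a receptor of R-spondins that marks stem cells of several epithelia, was detected in 16 of 50 positive and 3 of 20 negative cells (13.0 points). Of the 6 gland assays, 4 were compared and Prom1 alone was past 20 points. Foxa2, a transcription factor of uterine glands, was detected in 1 positive and 3 negative cells, too few to compare, and Sox9 in 23 and 8 cells (-1.99 points). Of the 3 steroid and proliferation assays, Pgr was past 20 points lower; the oestrogen receptor gene Esr1 was detected in 80% of either group, and the proliferation marker Mki67 in 16 and 6 cells (-8.72 points). Of the 7 integrins on the list, which leaves out Itgae, 5 were compared and Itga3 alone was past 20 points higher. Itgae, also an integrin subunit, was past 20 points lower (-21.3 points). Of the 10 surface proteins, 7 were compared, Cd55 and Alcam were past 20 points higher and Anpep lower.

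The general epithelial genes were present in nearly all cells of either group. Krt18, Krt19 and Cd24a were detected in all 70 cells, Krt8 in 49 of 50 and 18 of 20, Cd9 in 50 of 50 and 18 of 20, and the adhesion gene Cdh1 in 50 of 50 and 17 of 20. The basal factor Trp63 was found in 5 of 50 and 1 of 20 cells. Markers of other cell types were somewhat more frequent in the negative cells: of 13 such assays a positive cell detected 3 to 10 with a median of 6.5, and a negative cell 3 to 12 with a median of 8, which was 12.1% and 14.1% of all detections. Vim, the filament of stromal cells, was detected in 0 of 50 positive cells, where 3 counts would be a share of 6% and the exact interval reaches 7.11%, and in 2 of 20 negative cells, and Eng, of endothelium and stroma, in 1 and 3. Mcam, sma, Ptprc and Il17ra also had the higher plain share in negative cells, and Thy1 was level. Nt5e, which is on the stromal list (50 of 50 and 18 of 20 cells), and Mme (43 and 16) leaned to positive cells. So did Cd34 (29 and 10) and Cd40 (37 and 14). None of the 8 stromal, 3 endothelial and 3 immune assays was past 20 points higher in positive cells, and Tbx3 was lower. The median matched difference was -14.8 points over the 3 immune assays, -6.29 over the 5 compared stromal assays and 0.11 for the 1 compared endothelial assay. Before matching, the immune differences were only -4 points for Ptprc, -5 for Il17ra and 4 for Cd40, so the size of their median rests on the matching. Pecam1, an endothelial marker, was listed as detected in all 70 cells at similar Ct (median 15.24 and 15.23), and relative to Gapdh it lay at 3.19 ± 2.76 and 1.48 ± 1.71 cycles, a fitted difference of 0.95. The part that RNA of other cells in a well plays in these differences was not tested.

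Most positive cells held several of the assays that differed most in detection. Of the 7 assays higher by 30 points or more, a positive cell detected 2 to 7 with a median of 6; 40 of the 50 positive cells had at least 5 and 14 had all 7. A negative cell detected 0 to 5 with a median of 2; 1 of the 20 had 5, and 18 had 3 or fewer. The groups overlapped between 2 and 5 assays. Since these 7 assays were picked for their difference, the counts describe the split and support nothing. Among the positive cells, Prom1 went with Msi1, which was found in 96.9% of 32 cells with Prom1 and in 61.1% of those without, and with Pax2 (87.5% and 50%). Hopx went with neither: Prom1 was found in 59.4% of positive cells with Hopx and 72.2% of those without, and Pax2 in 68.8% and 83.3%. These shares are not matched on depth. In positive cells of the lowest, middle and highest stratum, Prom1 was found in 35.7%, 70.6% and 78.9%, Msi1 in 66.7%, 84.2% and 94.7% and Pax2 in 53.3%, 68.8% and 94.7%, while Hopx was found in 71.4%, 56.3% and 65%. Only 19 of the 50 positive cells had Hopx and Prom1 together, 13 had Hopx alone, 13 had Prom1 alone and 5 had neither.

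**Figure D3:**
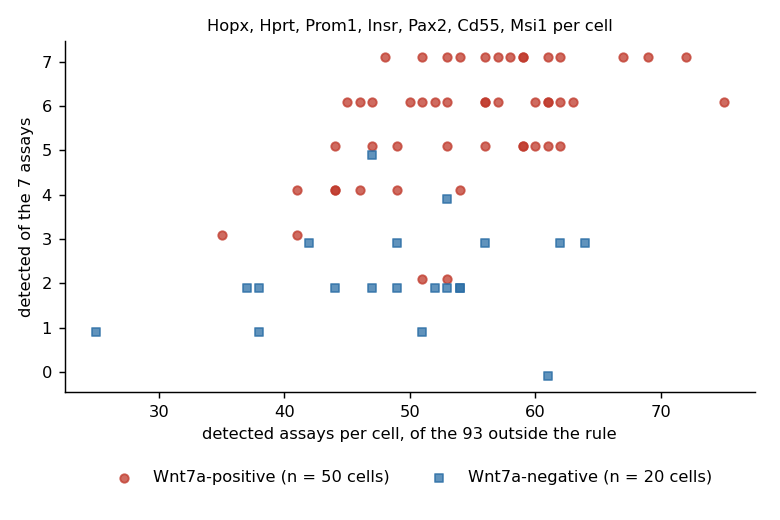
Number of the 7 assays Hopx, Hprt, Prom1, Insr, Pax2, Cd55 and Msi1 detected in each cell (y axis) against the number of detected assays of the 93 outside the rule (x axis), 1 point per cell, with the groups moved slightly apart in height. Positive cells lie at 2 to 7 and negative cells at 0 to 5 over the shared range of detected assays.

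**Figure D4:**
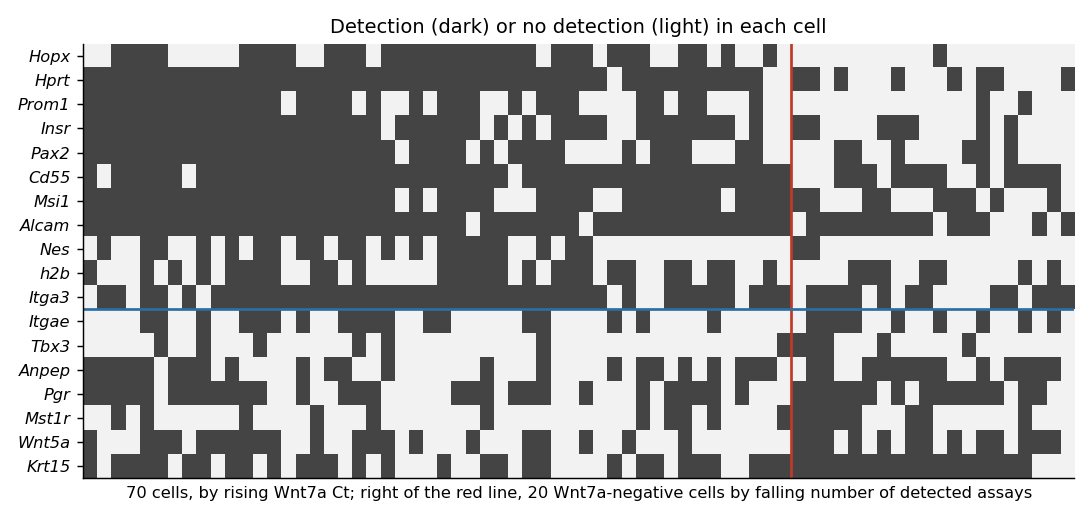
Detection (dark) or none (light) of the 11 assays above and the 7 below the blue line in each of the 70 cells; columns left of the red line are the 50 positive cells by rising Wnt7a Ct, and columns right of it are the 20 negative cells by falling number of detected assays. Hopx is dark in 32 positive columns and 1 negative column, and Krt15 in 29 and 17.

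The cells without Epcam give an outside view of the negative cells. Their shares are plain and not matched on the number of detected assays. Of the 18 cells with Gapdh but without Epcam, 16 also lacked Wnt7a. These 16 detected 0 to 3 of the 7 assays with a median of 1.5. Pax2 and Cd55 were found in 0 of 16, which the kept negative cells had in 6 and 12 of 20, while Hopx was found in 3 of 16 and Hprt in 5 of 16. The Epcam-lacking cells had Itga6 in 3 of 16 and Tbx3 in 9 of 16, against 15 and 5 of 20 kept negative cells. They had Krt18 in 15 of 16 and Cdh1 in 13 of 16, but the epithelial gene Cd9 in only 6 of 16, against 18 of 20 kept negative cells. Eng was found in 9 of 16 and Vim in 4 of 16, against 3 and 2 of 20 kept negative cells. Of the 7 assays lower in positive cells, the 16 Epcam-lacking cells detected a median of 2 and the kept negative cells a median of 4. Krt15 was found in 7, Wnt5a in 5 and Anpep in 2 of 16, against 17, 13 and 13 of 20. Pgr was found in 10, Itgae in 6 and Mst1r in 7 of 16, against 15, 9 and 8 of 20.

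In the cells that detected an assay, its level relative to Gapdh differed by 1 cycle or more for some genes, among them the keratin Krt18, which was detected in all 70 cells. The level is the assay's Ct minus the Gapdh Ct of the same cell, so a lower value means more template, and a difference of 1 cycle is about a doubling. With the number of detected assays in the fit, 6 of 59 assays (10.2%) lay at least 1 cycle lower in Wnt7a-positive cells, which is a higher level, and 13 (22%) lay at least 1 cycle higher. The median difference over the 59 assays was 0.12 cycles. The split depends on the reference: with raw Ct it was 13 lower and 10 higher, with a median of -0.31, and with the mean of Gapdh and actin as reference 3 lower and 20 higher, with a median of 0.48. Gapdh itself differed between the groups, so these values are relative to it.

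Krt18, a keratin of simple epithelia, had a Ct of 9.68 through 13.46 to 22.26 in positive cells and 13.24 through 16.86 to 21.84 in negative cells. Relative to Gapdh it lay at 1.45 ± 2.18 cycles (SD, n = 50) and 3.72 ± 3.01 cycles (SD, n = 20), a fitted difference of -2.83 cycles, and the ranges of the groups overlapped. Its partners differed less: Krt8 by -0.30 and Krt19 by -0.30 cycles. Of the 6 epithelial assays outside the rule, Krt18 and Cd24a were past 1 cycle lower. Cd24a, a surface glycoprotein of epithelium, lay at 2.22 ± 1.39 and 3.12 ± 2.39 cycles, a fitted difference of -1.20. Itga3 lay at 6.48 ± 1.80 and 7.57 ± 2.15 cycles in 42 and 12 detecting cells, a difference of -1.44, so it was both more often detected and higher. Nt5e, the ectonucleotidase CD73, differed by -1.18 cycles, Dpp4, the peptidase CD26, by -1.15 and Itgae by -1.97. Before depth entered the fit the difference was -0.06 cycles for Dpp4 and -0.99 for Itgae, each over 18 and 9 cells. Both turned sign, to 0.49 and 0.86 cycles, when undetected values were set at Ct 28. All 6 were past 1 cycle lower with raw Ct too, and 3 of them with the actin and Gapdh reference. Across the 17 alternatives Krt18 ran from -3.60 to -2.27 cycles.

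The 13 assays with a lower level in positive cells included receptors and regulators. Esr1, the oestrogen receptor, had a Ct of 15.75 through 19.90 to 23.76 in 40 positive and 13.22 through 19.71 to 21.97 in 16 negative cells. Relative to Gapdh it lay at 7.72 ± 1.45 and 5.61 ± 1.70 cycles, a fitted difference of 1.99. Esr1 was therefore equally often detected in the groups and lower in level in positive cells, though its raw Ct medians were close. Wnt5a lay at 8.42 ± 2.16 and 7.12 ± 1.63 cycles (difference 1.75) and was also less often detected. Of the 7 WNT pathway assays with enough detecting cells, 4 were past 1 cycle higher, against 22% of all 59 assays: Wnt5a, the receptor genes Fzd4 (1.62) and Fzd7 (1.24), and Lgr6 (1.13), while Ctnnb1 differed by -0.98. Hoxa11 had the widest difference, 2.88 cycles, over only 12 and 8 cells, with 12.90 ± 2.44 and 9.85 ± 1.96. The others were Sall4, Dppa2, Enpep, Tdgf1, Gja1, Cd34 and Il17ra, between 1.03 and 1.64 cycles. Of the 13, 9 were also past 1 cycle with raw Ct and 13 with the actin and Gapdh reference. Over the 17 alternatives for levels Esr1 ran from 1.62 to 2.76 cycles, and 7 of the 19 assays past 1 cycle in either direction stayed past it under all 17: Krt18, Itga3, Esr1, Wnt5a, Fzd4, Enpep and Dppa2. Hoxa11 stayed past it in the 11 that could be fitted for it. However, 8 of its 12 positive and 4 of its 8 negative detections were at Ct 24 or later. The settings without a fit included detection below Ct 26 or Ct 24 and Gapdh below Ct 16, so its difference was not checked against late values.

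**Figure D5:**
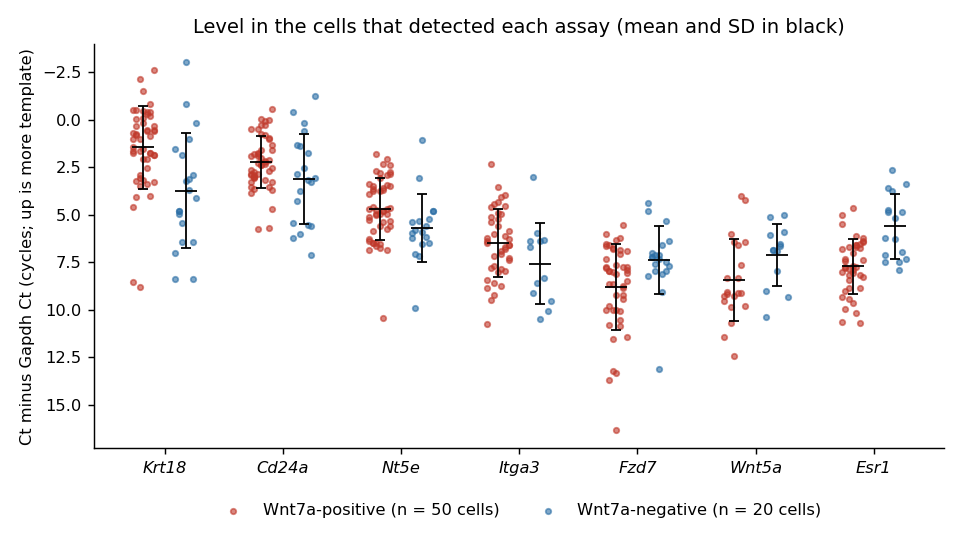
Ct minus Gapdh Ct (cycles, y axis inverted so that more template is up) of 7 assays in the Wnt7a-positive and Wnt7a-negative cells that detected them, 1 point per cell, with the mean and SD in black. Krt18 sits higher in positive cells (mean 1.45 against 3.72) and Esr1 lower (7.72 against 5.61), with overlapping points.

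Among the 50 positive cells, the Wnt7a level went with few other levels. Over 69 assays with at least 15 detecting cells, the median Spearman rho between Wnt7a and the other assay, each as Ct minus Gapdh Ct, was 0.18, and 6 assays reached 0.5. The Gapdh Ct of a cell enters each of its levels and the cells differ in depth, so the values are given as a description. Hprt had rho 0.66 over 47 cells (Pearson r 0.50, and 0.66 without the 2 cells farthest from the median Wnt7a level). Ezh2 had rho 0.61 over 39 cells (r 0.48, then 0.68) and Ctnnb1 0.60 over 50 cells (r 0.51, then 0.70). Prom1 had rho 0.52 over 32 cells (r 0.29, then 0.52), Dpp4 0.55 over 18 (r 0.47, then 0.35) and Fut4 0.55 over 19 (r 0.47, then 0.48). Epcam, which chose the cells, had 0.51. With raw Ct and with Gapdh Ct and depth held fixed, rho was 0.53 for Hprt, 0.51 for Ezh2, 0.59 for Ctnnb1 and 0.45 for Prom1. By that measure Wnt5a was highest of all, at 0.61 over the 21 positive cells that detected it, and Igf1r had 0.53 over 50. As Ct minus Gapdh Ct, Wnt5a had rho 0.25 (r 0.48, then -0.02). Hopx, with the widest gap in detection, had rho 0.05 over 32 cells, and Pax2 had 0.19 over 37. Among the assays with the widest gaps in detection, Hprt and Prom1 thus reached 0.5 and Hopx did not. Insr had 0.43 over 41 cells, Msi1 0.38 over 42 and Cd55 -0.0015 over 47. The general genes actin and Cdh1 had 0.43 over 50 cells, so values of that size were not particular to assays with a gap.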

How the data were processed

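The deposited table of Ct values, a score that runs to 40 where nothing was recorded, was used for all results. The second table holds each value as a fold, 2 to the power of the negative difference in Ct from Gapdh and from the first cell, a ratio that the authors deposited; recomputed from the Ct values it differed by at most 6.55e-06 on the log2 scale and served as an alternative. The labels' protocols name no chip software or Ct quality setting. Assay labels were matched to mouse symbols by symbol, synonym, CD or protein name (92 of 96 assays; actin, h2b, cd327 and sma kept their labels). An assay was detected below Ct 28. Shares were compared for assays detected in 10% to 90% of the kept cells, with 3 strata of detected assays (Mantel-Haenszel weights) and exact Clopper-Pearson 95% intervals, which cover counting error only. Ct minus Gapdh Ct was fitted by group and number of detected assays where at least 8 cells per group detected the assay. Genes are named if they are past 20 points or 1 cycle, lie nearest 0, reach rho 0.5 with Wnt7a, or are listed markers. Members and lists were chosen with earlier results of these data known. The scripts (Python 3.11.15, numpy 2.4.6, pandas 2.3.3, scipy 1.17.1) were tested on simulated data. The label gives 1 group of cells with no animal, so p-values were not computed.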

Additional observations from a re-analysis of the deposited data

How the results depend on the processing

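Under the 20 alternatives for shares, the 7 assays higher by 30 points or more each stayed at 20 points or more, and 8 to 11 of the 11 higher and 2 to 7 of the 7 lower assays stayed past 20 points. The count of lower assays was 4 with detection at Ct 24, 3 with any recorded Gapdh, 2 without taking depth into account, 12 at 15 points and 2 at 30 points, where the higher ones numbered 7. Assays with lower Ct minus Gapdh Ct numbered 12 with no Epcam limit, 3 without depth in the fit, 3 with the actin reference, 13 with raw Ct, 20 with undetected values at Ct 28 and 1 at 2 cycles. Those with higher values numbered 8 with detection at Ct 24, 20 with the actin reference, 30 with undetected values at Ct 28 and 1 at 2 cycles. With detection at Ct 24, Itgae turned to 6.02 points and Sall4 to -0.025 cycles. With no Epcam limit Anpep turned to 2.47 points. With undetected values at Ct 28, Dpp4 turned to 0.49 and Itgae to 0.86 cycles. In that setting cells without signal enter at Ct 28 minus their own Gapdh Ct, which differed between the groups. The causes of these changes were not tested. Fits with Gapdh Ct, or Gapdh Ct and Epcam Ct, and partial correlations were chosen after seeing the data. No paired analysis was possible because the labels give 1 group. The negative group has 20 cells, so its shares have wide intervals.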

Other observations

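The 2 cells without Epcam that had Wnt7a lay in the lower part of the range of the kept positive cells (2 to 7, median 6) for the 7 assays higher by 30 points or more. One cell had a Wnt7a Ct of 18.54, 31 detected assays and 2 of the 7, and the other had a Wnt7a Ct of 23.28, 52 detected assays and 3 of the 7. Of the kept positive cells, 4 had 3 or fewer of the 7, and the cell with the late Wnt7a Ct of 27.91 was among them, with 2 of the 7 and 53 detected assays. Of the kept negative cells, 1 had 5 of the 7 with 47 detected assays and another had 4 with 53. With the late cell counted as negative, the groups held 49 and 21 cells.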
